A study of Mus musculus with 2 samples.

Results

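Barcodes without a neuronal profile that carried several unique molecular identifiers (UMIs) of Isl1 were described in single-cell RNA-seq of mouse inner ear tissue. A UMI is 1 counted RNA molecule, and a barcode stands for 1 droplet. Barcodes were kept where 300 or more genes were detected and no more than 20% of UMIs were mitochondrial. A kept barcode was a member when it held at least 2 Isl1 UMIs and fewer than 5 of the 9 neuronal genes Nefl, Nefm, Nefh, Snap25, Tubb3, Stmn2, Scn1a, Rbfox3 and Map2. The rule found 195 members among 22672 kept barcodes of ears given an adeno-associated virus (AAV) carrying Isl1 before noise, and 36 among 19953 kept barcodes of noise-only ears, 231 of 42625 in all. Members were chosen by their Isl1 counts and by the 9 neuronal genes, so the values of these genes are given as a description.

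The AAV-Isl1 plus noise library came from ears that had received the virus, and the noise only library came from the untreated contralateral ears. Both came from the same CBA/CaJ mice, and 5 mice were pooled in each library. The mice were 4 to 6 weeks old and had been exposed to noise of 105 dB at 1 to 20 kHz for 2 h, with tissue taken 2 days later, so both groups were noise exposed. With 1 pooled library per group, no difference between the libraries could be set against the variation between mice, and no test was made. Intervals are exact, at 95%, and cover counting error only. A summed level is given in CPM, UMIs of a gene per 1000000 UMIs of the same barcodes.

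Isl1 encodes a LIM homeodomain transcription factor. In the developing inner ear it is expressed in the prosensory epithelium and in the neurons, and in the mature ear spiral ganglion neurons still express it. An AAV delivers its transgene mostly without integrating it into the host genome, and the cells that take it up depend on the capsid and the promoter. In GRCm38, Isl1 (ENSMUSG00000042258) lies on the minus strand of chromosome 13, from 116298281 to 116309689, with 5 annotated transcripts. RNA of the vector that maps to Isl1 carries the same gene name in the deposited tables, so it cannot be told apart from RNA of the mouse's own gene.

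The deposited matrices held 24209 barcodes for AAV-Isl1 plus noise and 21068 for noise only. Kept barcodes had a median of 1102 UMIs in AAV-Isl1 plus noise and 1094 in noise only. The libraries shared 145 barcode sequences, 0.599% of the AAV-Isl1 plus noise barcodes and 0.688% of the noise only barcodes, and 0 members were among them. A doublet caller marked 11 AAV-Isl1 plus noise members and 2 noise only members.

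Members made up 0.860% of kept barcodes in the AAV-Isl1 plus noise library (0.744 to 0.989%) and 0.180% in the noise only library (0.126 to 0.250%), a ratio of 4.77 (3.33 to 7.01). The members differed in depth, with a median of 1567 UMIs in the AAV-Isl1 plus noise library and 3363 in the noise only library. Among barcodes with at least 1000 UMIs whose Isl1 was thinned to that depth, 81 of 12646 (0.641%) AAV-Isl1 plus noise barcodes and 4 of 10869 (0.0368%) noise only barcodes were members, a ratio of 17.4 (6.54 to 65.4). With the 9 neuronal genes thinned as well, which lets neurons with few UMIs pass the rule, 98 and 14 barcodes were members, a ratio of 6.02 (3.42 to 11.4). The share was higher with AAV under each of these counts, and their intervals overlap.

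The number of Isl1 UMIs per member also set the libraries apart. Exactly 2 Isl1 UMIs, the lowest count the rule admits, were found in 87 AAV-Isl1 plus noise members and 28 noise only members. At least 5 were found in 54 AAV-Isl1 plus noise members and in 1 noise only member, and at least 10 in 27 AAV-Isl1 plus noise members and 0 noise only members. The highest counts were 94 Isl1 UMIs in the AAV-Isl1 plus noise library and 8 in the noise only library. As a share of the barcode's own UMIs, Isl1 ranged over members from 318 to 64935 CPM with a median of 2075 CPM in the AAV-Isl1 plus noise library, and from 219 to 3766 CPM with a median of 686 CPM in the noise only library. The upper end was therefore reached in the AAV-Isl1 plus noise library, while the low ends overlapped. Members carried 25.96% of the 4410 Isl1 UMIs in the AAV-Isl1 plus noise library and 2.95% of 2986 in the noise only library. Just outside the rule, 438 AAV-Isl1 plus noise barcodes and 239 noise only barcodes had 1 Isl1 UMI and fewer than 5 of the 9 neuronal genes.

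**Figure D1:**
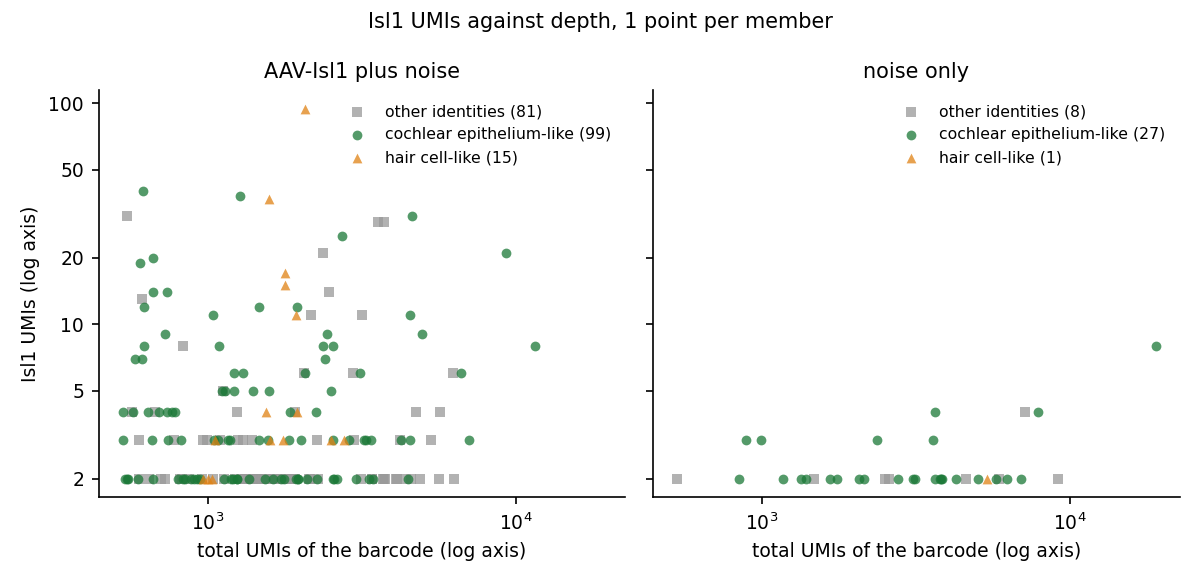
Isl1 UMIs against total UMIs for each member, both on log axes, with AAV-Isl1 plus noise on the left and noise only on the right; each point is 1 barcode and colours mark epithelium-like (99 and 27), hair cell-like (15 and 1) and other identities (81 and 8). Members with 10 or more Isl1 UMIs are seen in the AAV-Isl1 plus noise panel, 27 of them, and the highest noise only member has 8.

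The neuronal part of the rule removed barcodes that were far from its limit. It excluded 778 AAV-Isl1 plus noise barcodes and 615 noise only barcodes with at least 2 Isl1 UMIs, of which 745 with AAV and 603 in noise only held at least 7 of the 9 genes. At the limit itself, 4 genes were detected in 2 AAV-Isl1 plus noise members and 1 noise only member, and 5 genes in 4 excluded barcodes with AAV and 2 in noise only. None of the 9 genes was detected in 128 AAV-Isl1 plus noise members (65.6%) and 21 noise only members (58.3%). Neuronal genes that the rule did not use summed to 1414 CPM in the AAV-Isl1 plus noise members and to 18578 CPM in the excluded barcodes of that library. For noise only the sums were 698 CPM in members and 18395 CPM in excluded barcodes. The excluded barcodes were chosen for their neuronal genes, so this gap follows from the rule and does not test the label non-neuronal. In the barcodes with 0 Isl1 UMIs that members are compared with below, these genes summed to 961 CPM with AAV and 734 CPM in noise only. Beside those barcodes the members held more of this RNA with AAV. By clustering, 3 AAV-Isl1 plus noise members and 1 noise only member still lay in the neuron-like cluster.

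By identity, most members lay in a cluster of cochlear supporting, sulcus, limbus or root epithelium-like barcodes, called epithelium-like from here, whose leading genes were Ceacam16, Epyc, Otol1, Kcnj16 and Gpx2. The name rests on markers over the whole cluster, so it need not hold for each of its parts. Ceacam16 and Otol1 encode extracellular matrix proteins of the inner ear and Epyc a small proteoglycan. This cluster held 99 members among 943 barcodes (10.5%, 8.61 to 12.6%) in the AAV-Isl1 plus noise library and 27 among 1073 (2.52%, 1.66 to 3.64%) in the noise only library. Isl1 summed to 548 CPM over all its AAV-Isl1 plus noise barcodes and to 106 CPM over all its noise only barcodes, at median depths of 1044 UMIs with AAV and 1305 UMIs in noise only. The share and the summed level therefore differed in the same direction, with the shallower library the higher. The epithelium-like cluster also held the greater part of the 36 noise only members.

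The hair cell-like cluster was led by Cib3, Cabp2, Ocm, Xirp2 and Bdnf. Cib3 and Cabp2 encode calcium-binding proteins of hair cells, Ocm the calcium buffer oncomodulin, Xirp2 an actin-binding protein and Bdnf a neurotrophin. It held 15 members among 361 barcodes (4.16%, 2.34 to 6.76%) in the AAV-Isl1 plus noise library and 1 among 102 (0.980%, 0.025 to 5.34%) in the noise only library. Its Isl1 level was 491 CPM in AAV-Isl1 plus noise barcodes and 53.1 CPM in noise only barcodes. An unnamed cluster led by Vmo1, Crhbp, Cndp1, Tmem72 and Dkk2 held 14 members among 528 barcodes (2.65%, 1.46 to 4.41%) in the AAV-Isl1 plus noise library and 1 among 441 (0.227%) in the noise only library. Crhbp encodes the binding protein of corticotropin-releasing hormone and Dkk2 an inhibitor of Wnt signalling. Both clusters had the higher share and the higher Isl1 level in the AAV-Isl1 plus noise library, where the Vmo1-led cluster stood at 80.2 CPM, against 15.6 CPM in noise only.

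Free RNA can give UMIs to droplets whose cell does not express a gene, so the clusters above were set beside identities not known for Isl1. Erythroid-like barcodes held 6 members among 861 (0.697%, 0.256 to 1.51%) in the AAV-Isl1 plus noise library, at a median of 2002 UMIs and with at most 4 Isl1 UMIs, and 2 among 233 (0.858%, 0.104 to 3.07%) in the noise only library, at a median of 2397 UMIs. Both of these noise only members were rich in Bpifa1, a gene of secretory epithelium. Most Isl1 UMIs of erythroid-like barcodes, 62 of 95 with AAV and 21 of 33 in noise only, lay in barcodes that held at least 5 of the 9 neuronal genes. Without those barcodes Isl1 stood at 20.1 CPM (13.8 to 28.2) with AAV and 21.2 CPM (10.98 to 37.1) in noise only. Barcodes with over 50% hemoglobin UMIs had 15.4 CPM with AAV and 6.97 CPM in noise only. Another 9 named identities outside the epithelium-like, hair cell-like and neuron-like clusters lay between 5.54 and 41.3 CPM with AAV and between 0 and 6.65 CPM in noise only. These identities differed among themselves, so none was taken as the level of free RNA. With AAV the Isl1 levels of the epithelium-like, hair cell-like and Vmo1-led clusters were all higher than these values. In noise only the epithelium-like level of 106 CPM (91.4 to 122) was higher too. The noise only hair cell-like level of 53.1 CPM had an interval (25.5 to 97.6) that overlapped that of erythroid-like barcodes, and the Vmo1-led level of 15.6 CPM lay below their 21.2 CPM. The Vmo1-led cluster was also clustered again, after the data were seen. Its part led by Crhbp and Vmo1 held 1 member among 147 barcodes with AAV, at 34.0 CPM. That level lay within the range of the 9 named identities. The part led by Pcdh17 and Otog held 6 of 209, at 103 CPM. The part led by Bpifa1 held 3 of 21, at 181 CPM, and the only noise only member of the cluster.

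The other identities held few members, although single members in them reached high counts. Schwann or satellite glia-like clusters held 12 members among 4411 AAV-Isl1 plus noise barcodes (0.272%) and 1 among 6577 noise only barcodes (0.0152%). Of these, 11 with AAV and 1 in noise only lay in the cluster led by Pou3f1, Egr2, Mlip, Sfrp5 and Egfl8, of which Pou3f1 and Egr2 encode transcription factors of myelinating Schwann cells. Another unnamed cluster, led by Them5, Ceacam10, Igfbp6, Lama1 and Col9a3, held 8 of 698 (1.15%) AAV-Isl1 plus noise barcodes and 0 of 319 noise only barcodes. Fibrocyte-like barcodes held 8 of 2484 (0.322%) with AAV and 1 of 2048 in noise only. The highest Isl1 count of an AAV-Isl1 plus noise member was 13 UMIs among Schwann or satellite glia-like barcodes, 11 among fibrocyte-like, 31 in an unnamed cluster led by Igkc, Iglc2 and Mzb1 that also held T cell markers, 29 among macrophage-like and 29 among stria intermediate cell-like barcodes. These counts exceed the 4 UMIs of the highest erythroid-like member of that library. The highest macrophage-like and the highest stria intermediate cell-like members were called doublets.

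**Figure D2:**
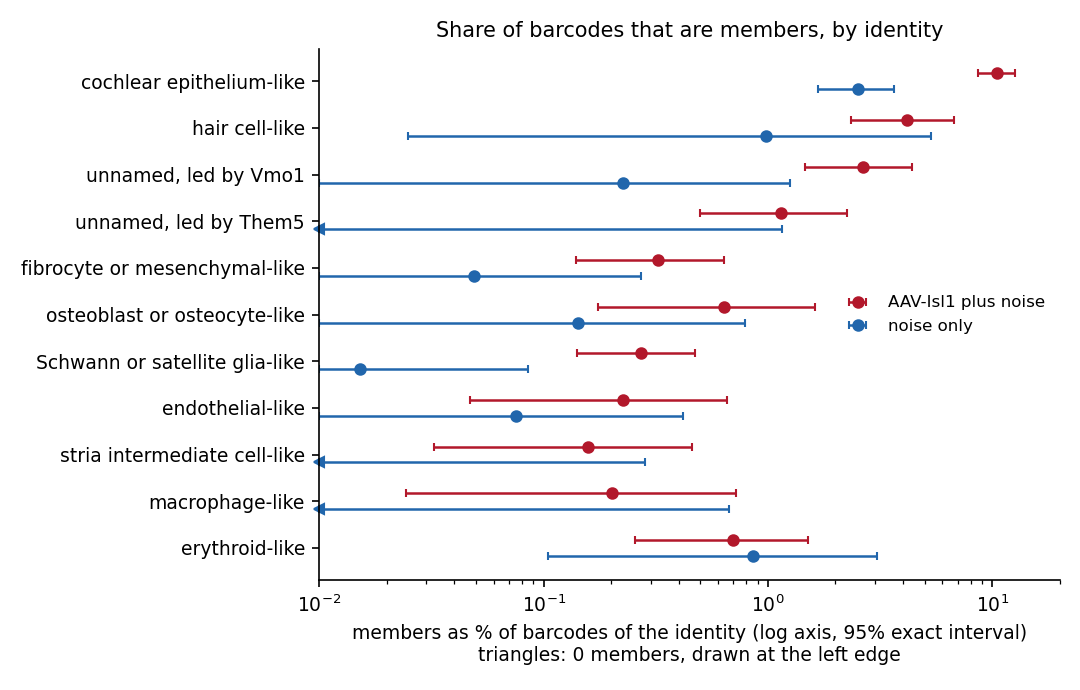
Percent of the barcodes of each identity that were members, on a log axis, with 95% exact intervals; red is AAV-Isl1 plus noise and blue is noise only, triangles mark 0 members, and lines that reach the left edge continue below the axis. The epithelium-like cluster has the highest share in both libraries, 10.5% with AAV and 2.52% in noise only, and erythroid-like barcodes stand at 0.697% with AAV and 0.858% in noise only.

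Clustering the epithelium-like barcodes again split the members unevenly. The sub-clusters were chosen after the data were seen and are named by their leading genes. The sub-cluster led by Ecrg4, Mybpc1, Il33, Krt18 and Tcf4 held 56 members among 169 barcodes (33.1%, 26.1 to 40.8%) in the AAV-Isl1 plus noise library and 3 among 54 (5.56%, 1.16 to 15.4%) in the noise only library. Its Isl1 level was 1764 CPM in AAV-Isl1 plus noise barcodes and 171 CPM in noise only barcodes. Of its 56 AAV-Isl1 plus noise members, 29 had at least 5 Isl1 UMIs, out of the 54 such members of the whole library. Ecrg4 encodes a secreted precursor protein, Mybpc1 a myosin-binding protein, Il33 an alarmin cytokine and Krt18 a keratin of simple epithelia.

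Within this Ecrg4-led sub-cluster of the AAV-Isl1 plus noise library, members had Otog at 1630 CPM and barcodes with 0 Isl1 UMIs at 1403 CPM. Otog encodes otogelin, a protein of the acellular membranes of the ear. The supporting cell transcription factor Sox2 stood at 630 CPM in members and 345 CPM in barcodes with 0 Isl1 UMIs. Otol1, encoding otolin, stood at 597 CPM in members and 385 CPM in barcodes with 0 Isl1 UMIs. Epyc and Ceacam16, which led the whole epithelium-like cluster, were low in these members, with Epyc at 33.6 CPM and Ceacam16 at 0 CPM. The cochlear part of the cluster's name was thus not borne out by Epyc and Ceacam16 in these members. Whether they come from the cochlea was not tested.

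Members in the other epithelial sub-clusters were fewer. The sub-cluster led by Tcap, Actn1 and Ltbp2 held 10 of 177 (5.65%) in the AAV-Isl1 plus noise library and 0 of 285 in the noise only library, with Isl1 at 194 CPM with AAV and 36.1 CPM in noise only. The one led by Tectb, Otol1 and Otof held 5 of 135 (3.70%) with AAV, at 197 CPM, and 0 of 53 in noise only, at 22.9 CPM. In 3 other sub-clusters the shares lay closer together. The Rorb-led sub-cluster held 6 of 97 (6.19%) in the AAV-Isl1 plus noise library and 9 of 215 (4.19%) in the noise only library, with Isl1 at 267 CPM with AAV and 212 CPM in noise only. The one led by Lgals1, Tnnt2 and Epyc held 4 of 107 (3.74%) with AAV and 8 of 218 (3.67%) in noise only, and the one led by Apoc3, Rubie and Apoc1 held 2 of 19 with AAV and 5 of 53 (9.43%) in noise only. These 3 sub-clusters held 22 of the 27 epithelium-like members of the noise only library.

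**Figure D3:**
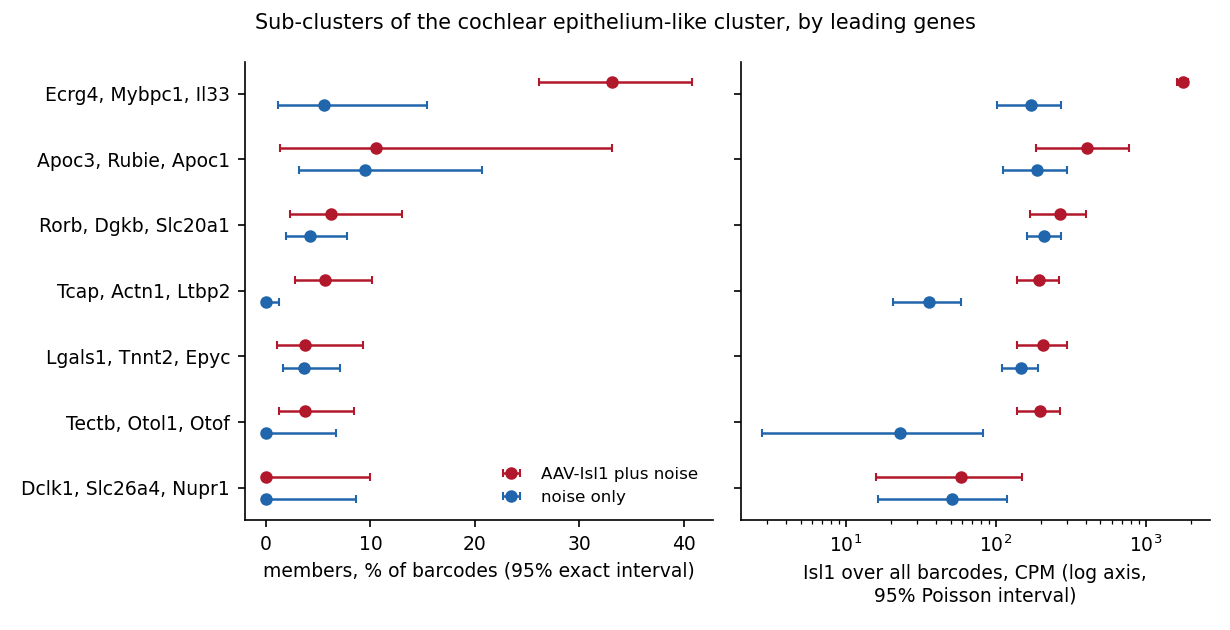
Epithelial sub-clusters, without 1 that is not reported here, named by their 3 leading genes, with the percent of barcodes that were members on the left and the summed Isl1 level in CPM, on a log axis, on the right, both with 95% exact intervals; red is AAV-Isl1 plus noise and blue is noise only. The Ecrg4-led sub-cluster stands at 33.1% and 1764 CPM in AAV-Isl1 plus noise, against 5.56% and 171 CPM in noise only.

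The place of a member varied with its Isl1 count in the AAV-Isl1 plus noise library. Of members with 2, 3 to 4 and at least 5 Isl1 UMIs, 39.1%, 53.7% and 66.7% were epithelium-like, and 14.9%, 25.9% and 53.7% lay in the Ecrg4-led sub-cluster. Of the 438 barcodes with 1 Isl1 UMI, 26.5% were epithelium-like and 5.02% lay in that sub-cluster. Higher Isl1 counts therefore went with a larger share in the Ecrg4-led sub-cluster. Among noise only members, 71.4% of those with 2 Isl1 UMIs and 85.7% of those with 3 to 4 were epithelium-like.

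Hair cell-like members of the AAV-Isl1 plus noise library were concentrated in a sub-cluster led by Dlk2, Scn3b and Sox2, with 7 members among 34 barcodes (20.6%, 8.70 to 37.9%) and Isl1 at 2589 CPM, against 0 of 11 in the noise only library. This sub-cluster included the barcode with the most Isl1 of all, 94 of its 2066 UMIs, which carried most of the level: without it Isl1 stood at 587 CPM (384 to 860). Its 7 members had Otof at 2894 CPM, Pcp4 at 3473 CPM and the inner hair cell vesicular glutamate transporter gene Slc17a8 at 675 CPM. Otof encodes otoferlin, the calcium sensor of hair cell exocytosis, so these members carried hair cell RNA as well as Isl1. A sub-cluster led by the outer hair cell gene Ocm with Olfm4 and Chst2 held 3 of 43 (6.98%) in the AAV-Isl1 plus noise library and 0 of 12 in the noise only library. The largest hair cell-like sub-cluster, led by Oosp2, Nme9 and Cib3, held 1 of 183 with AAV and 0 of 63 in noise only.

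To compare genes at like identity and depth, each member was set beside up to 10 barcodes of the same library and cluster with 0 Isl1 UMIs, called matched barcodes. In the epithelium-like cluster with AAV the pool was used up, as all 728 eligible barcodes were taken. A stricter match, added after the data were seen, took 1 barcode of the same sub-cluster per member. In the AAV-Isl1 plus noise library 192 members, with a median of 1553 UMIs, were matched to 1631 barcodes with a median of 1326. In the noise only library 35 members, with a median of 3129 UMIs, were matched to 300 barcodes with a median of 2695.5. A gene was called by size, at least 2-fold, among genes with at least 30 UMIs in members and matched barcodes together and at least 20 CPM in one of them. In the AAV-Isl1 plus noise library 399 of 7557 genes were called higher in members (5.28%) and 302 lower (4.00%). Under the sub-cluster match, which held fewer UMIs, 113 of 4112 genes were called higher (2.75%) and 72 lower (1.75%). These calls describe the barcodes of 1 library.

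Slc17a8 and Unc80 had the highest ratios in the AAV-Isl1 plus noise library. Slc17a8 stood at 75.4 CPM in members and 14.3 CPM in matched barcodes, 5.26-fold (3.11 to 8.80) and 3.89-fold under the sub-cluster match. Unc80, a subunit of the NALCN sodium leak channel complex, had 37.7 CPM in members and 7.17 CPM in matched barcodes, 5.26-fold (2.44 to 11.1), and 1.94-fold with an interval that includes 1 under the sub-cluster match. Gad1, which makes the transmitter GABA, had 72.7 CPM in members and 14.3 CPM in matched barcodes, 5.07-fold (2.98 to 8.53), and 2.91-fold under the sub-cluster match. Pcp4, encoding a calmodulin-binding peptide, had 364 CPM in members and 73.5 CPM in matched barcodes, 4.94-fold (3.94 to 6.19), and 3.54-fold under the sub-cluster match. Several genes at the top are used by hair cells or neurons, although the 9 neuronal genes were limited by the rule. Pinx1, Cdh4, Cpa6, Amph, Gpc2 and Tox2 completed the 10 highest, with ratios between 3.93 and 5.16. Cdh4 encodes a cadherin and Amph a protein of endocytosis.

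At the low end in the same library, Tyr, the enzyme of melanin synthesis, had 2.69 CPM in members and 50.9 CPM in matched barcodes, a ratio of 0.0529, and 0.139 with an interval that includes 1 under the sub-cluster match. Tcap, encoding a titin-binding protein, had 8.08 CPM in members and 97.7 CPM in matched barcodes, a ratio of 0.0827. Tcap leads an epithelial sub-cluster, at 703 CPM there and 62.1 CPM in the rest of the epithelium-like cluster over both libraries. That sub-cluster held 10 of the 99 epithelium-like members with AAV. Its part in the Tcap ratio was not tested. The chemokine gene Ccl2 had 8.08 CPM in members and 66.4 CPM in matched barcodes, a ratio of 0.122, and 0.416 with an interval that includes 1 under the sub-cluster match. The remaining genes of the 10 lowest were Rasl11a, Arhgap42, Cracr2b, Mrpl39, Rbfa, Ifit2 and Ecscr, between 0.0904 and 0.141. Ifit2 is induced by interferon and Ecscr is an endothelial gene.

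Gene lists moved together to different degrees. Of 25 measured hair cell genes, 22 were higher in members than in matched barcodes in the AAV-Isl1 plus noise library, with a median log2 ratio of 0.90 against 0.03 over all genes, and 10 were called higher. Summed, they stood at 3428 CPM in members and 1541 CPM in matched barcodes, 2.22-fold (2.09 to 2.37), and 1.87-fold under the sub-cluster match. The excess was carried in part by a few barcodes: without the 5 members with the most UMIs of the list the ratio was 1.52, and 1.28 under the sub-cluster match. Immediate early and stress genes stood at 36639 CPM in members and 23109 CPM in matched barcodes, 1.59-fold, with 25 of 29 genes higher and Fos at 7818 CPM in members and 4395 CPM in matched barcodes. These genes stood at 23780 CPM in members and 27341 CPM in matched barcodes of the noise only library, a ratio of 0.87, with 7 of 28 higher. Fos and Jun encode transcription factors that many stimuli induce quickly. Under the sub-cluster match the ratios were 1.26 with AAV and 1.05 in noise only (0.991 to 1.11), so the ratio under 1 in noise only was not kept.

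Interferon-stimulated genes stood at 5688 CPM in members and 7629 CPM in matched barcodes of the AAV-Isl1 plus noise library, a ratio of 0.746, with 8 of 38 higher. Their ratio was 0.620 in noise only, with 13 of 28 higher. Under the sub-cluster match the ratios were 0.874 with AAV and 0.513 in noise only. Among epithelium-like barcodes alone they were 0.657 with AAV and 0.876 in noise only. There the sub-cluster match gave 0.763 with AAV and 1.16 in noise only (0.991 to 1.36), so the lower level was not kept in noise only epithelium-like members. Ifi27l2a, the list's main gene, had 1853 CPM in members and 2594 CPM in matched barcodes with AAV, a ratio of 0.714, and in noise only 796 CPM in members and 2598 CPM in matched barcodes. MHC class I and antigen presentation genes had a summed ratio of 0.778 with AAV, where 5 of 16 were higher, and 0.822 in noise only. H2-D1, a heavy chain, had 310 CPM in members and 529 CPM in matched barcodes with AAV, and in noise only 300.4 CPM in members and 311 CPM in matched barcodes. Gap junction genes, which link supporting cells, had ratios of 0.786 with AAV, where 3 of 18 were higher, and 0.824 in noise only, where 3 of 14 were.

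The remaining lists are given by their summed ratios. Notch pathway genes had a summed ratio of 1.41 in the AAV-Isl1 plus noise library (12 of 17 genes higher) and 1.54 in the noise only library (10 of 11). Without the 5 members of each library richest in Notch genes the ratios were 1.24 (1.07 to 1.43) and 1.25 (0.959 to 1.61). Under the sub-cluster match the Notch ratios were 1.26 and 1.39. Without those 5 members they were 1.11 (0.915 to 1.35) and 1.12 (0.792 to 1.59), intervals that include 1. Otic transcription factors had ratios of 1.37 with AAV and 1.26 in noise only. In the same order of libraries the ratios were, for Wnt pathway genes, 1.14 and 1.03, for LIM genes 1.17 and 1.04, for genes against apoptosis 1.13 and 1.06, for p53 targets 1.04 and 1.13, and for antioxidant genes 0.838 and 0.910. Sox2 had 331 CPM in members and 113 CPM in matched barcodes with AAV, 2.93-fold. Neuronal genes outside the 9 had a ratio of 1.47 with AAV, at 1414 CPM in members and 961 CPM in matched barcodes, with 11 of 22 higher, and 0.952 in noise only. Without the 5 members richest in these genes the ratio with AAV was 1.11 (0.996 to 1.24), an interval that includes 1. Under the sub-cluster match the ratios with and without those 5 members were 1.58 and 1.20. Pcp4, among the genes with the highest ratios with AAV, belongs both to this list and to the hair cell list. The part of neuronal genes in the other ratios was not tested.

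**Figure D4:**
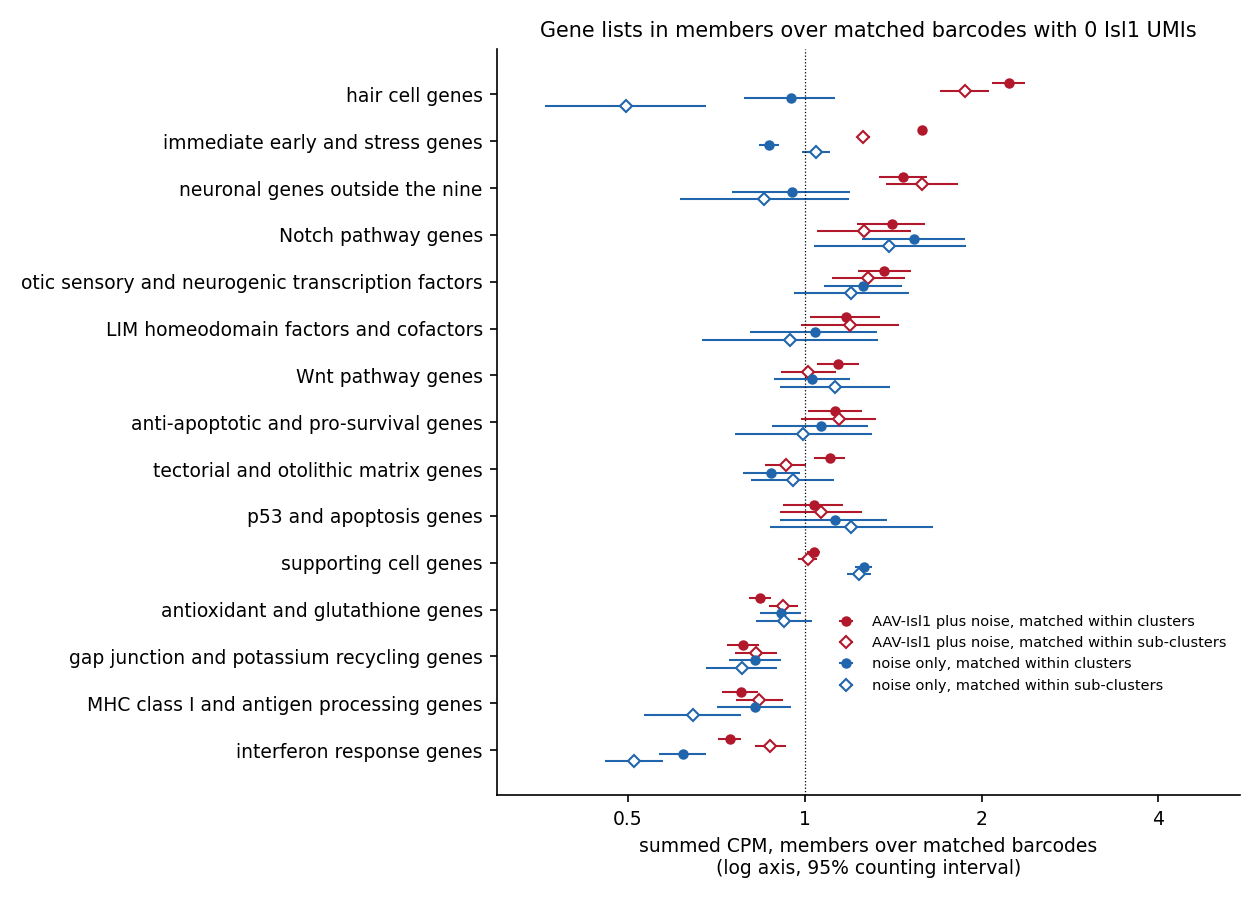
Ratio of summed CPM in members to matched barcodes for each gene list, with 95% intervals for counting error; circles are matched within clusters, diamonds within sub-clusters, red is AAV-Isl1 plus noise and blue is noise only. Hair cell genes stand at 2.22 and 1.87 in AAV-Isl1 plus noise within clusters and sub-clusters. Immediate early genes stand at 1.59 and 1.26 in AAV-Isl1 plus noise, and at 0.87 and 1.05 in noise only.

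Among epithelium-like barcodes of the AAV-Isl1 plus noise library, 97 members were matched to 728 barcodes. These 728 were all the barcodes of this cluster and library with 0 Isl1 UMIs and fewer than 5 of the 9 neuronal genes. The match therefore made no choice by depth or sub-cluster within that pool. Median depths were 1274 UMIs in members and 989.5 in matched barcodes. There 315 of 5433 genes were called higher (5.80%) and 408 lower (7.51%), and under the sub-cluster match 56 of 1876 higher (2.99%) and 43 lower (2.29%). Hair cell genes were prominent, with 14 of 17 measured genes higher and 11 called higher. Their sum was 2834 CPM in members and 842 CPM in matched barcodes, 3.37-fold (3.001 to 3.78), and 2.02-fold under the sub-cluster match. The same list stood in the noise only library at 619 CPM in epithelium-like members and 1230 CPM in matched barcodes, a ratio of 0.504, with 3 of 12 higher.

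Of 17 hair cell genes, 15 were detected in a larger share of these members than of matched barcodes, and 14 in a larger share than of barcodes matched in the same sub-cluster. Detection rises with depth, and the members had a median of 1274 UMIs, matched barcodes 989.5 and those of the same sub-cluster 1272. The share of all genes detected more often in members was not computed. Some differences from the same sub-cluster were small, as for Cabp2 (9.28% and 7.22%) and Myo6 (36.1% and 30.9%). Ush1c, encoding the scaffold harmonin, was detected in 43.3% of members, 14.3% of matched barcodes and 27.8% of barcodes matched in the same sub-cluster. Tmc1, a component of the mechanotransduction channel, was detected in 9.28% of members, 0.824% of matched barcodes and 1.03% of the same sub-cluster. Otof was detected in 8.25% of members, 1.79% of matched barcodes and 4.12% of the same sub-cluster. The values of Tmc1 and Otof rest on a few barcodes. Pcdh15, which encodes a protein of the tip link, went the other way, in 4.12% of members, 4.81% of matched barcodes and 11.3% of the same sub-cluster, as did Cib2, in 6.19% of members, 6.87% of matched barcodes and 7.22% of the same sub-cluster. By level, Xirp2 had 156 CPM in members and 20.9 CPM in matched barcodes, 7.498-fold (4.02 to 14.3), and 3.72-fold under the sub-cluster match. Pou4f3, the transcription factor needed for hair cell survival, had 52.2 CPM in members and 5.49 CPM in matched barcodes, from 9 UMIs in members and 5 in matched barcodes. Atoh1, which starts hair cell formation, had 0 UMIs in members.

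The hair cell signal was uneven over barcodes. At least 1 UMI of the list was found in 70.1% of epithelium-like members, 42.2% of matched barcodes and 58.8% of barcodes matched in the same sub-cluster. A single member carried 18.0% of the list's UMIs, and without the 5 richest members the ratio was 1.92, and 1.15 under the sub-cluster match, with an interval (0.958 to 1.38) that includes 1. Over all 99 epithelium-like members of this library the list had a median of 1177 CPM and a highest value of 75732 CPM. Hair cell-like members of the library had a median of 21318 CPM and a highest value of 75079 CPM. At least 1 epithelium-like member thus held as much hair cell RNA as the hair cell-like ones. None of the 97 members was called a doublet, against 3.85% of the matched barcodes. Whether single members hold RNA of more than 1 cell was not tested beyond this call.

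**Figure D5:**
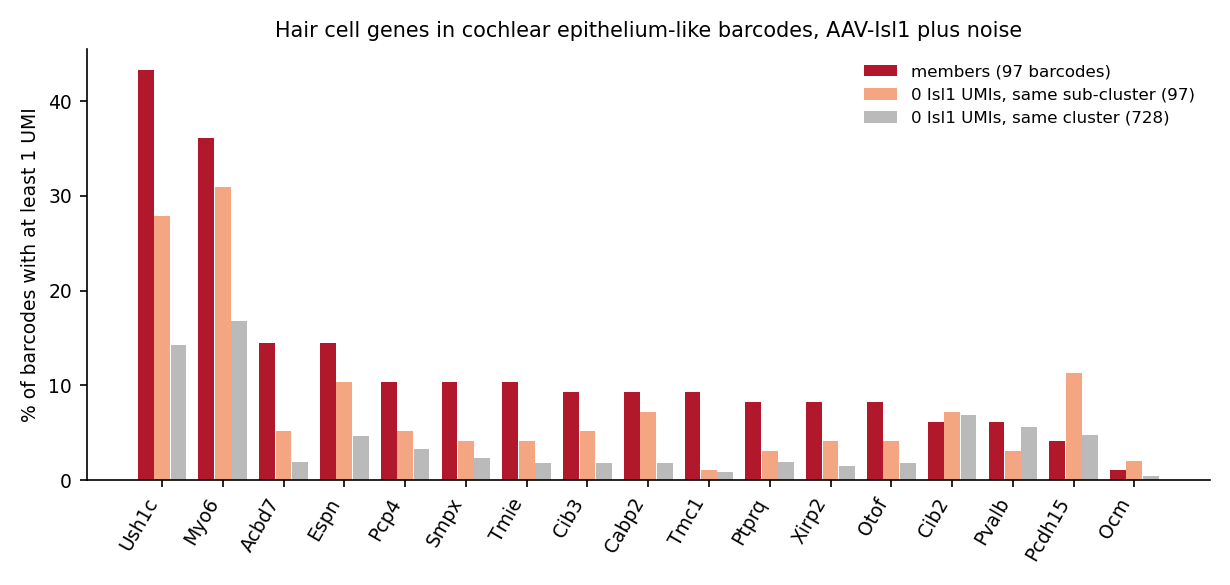
Percent of epithelium-like barcodes of the AAV-Isl1 plus noise library with at least 1 UMI of each hair cell gene, for 97 members, 97 barcodes of the same sub-cluster and 728 barcodes of the same cluster with 0 Isl1 UMIs. Ush1c is detected in 43.3% of members, 27.8% of the same sub-cluster and 14.3% of the same cluster.

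Outside this list, Hey2, a Notch target that encodes a transcriptional repressor, had 86.9 CPM in epithelium-like members and 19.8 CPM in matched barcodes, 4.40-fold, and 2.06-fold with an interval that includes 1 under the sub-cluster match. The other genes with the highest ratios were Cdh4, Acbd7, Smpx and Ptprq, between 4.03 and 5.28. Spp1, encoding the secreted protein osteopontin, had 2689 CPM in members and 775 CPM in matched barcodes, 3.47-fold (1.74-fold under the sub-cluster match), and in noise only 59.6 CPM in members and 1579 CPM in matched barcodes. Sox2 was 2.75-fold higher in these members and 1.56-fold under the sub-cluster match. At the low end, Tcap had 17.4 CPM in members and 278 CPM in matched barcodes. The Tcap-led sub-cluster held 10 of the 99 epithelium-like members and 154 of the 728 matched barcodes, and its part in this ratio was not tested. The apolipoprotein gene Apoc1 had 5.80 CPM in members and 92.3 CPM in matched barcodes, and the fatty acid-binding protein gene Fabp3 had 11.6 CPM in members and 129 CPM in matched barcodes. Apoc1 and Fabp3 differed the other way in the noise only library, where Apoc1 had 405 CPM in members and 151 CPM in matched barcodes and Fabp3 667 CPM in members and 167 CPM in matched barcodes. Of the member UMIs there, 1 barcode held 52.9% for Apoc1 and 58.9% for Fabp3, and under the sub-cluster match of all noise only members the ratios were 0.451 for Apoc1 and 0.986 for Fabp3. Tdrd12, Polr2a and Clptm1l completed the 6 lowest, between 0.0965 and 0.103. Supporting cell genes as a list stood at 23202 CPM in epithelium-like members and 30056 CPM in matched barcodes with AAV, and in noise only at 45189 CPM in members and 35127 CPM in matched barcodes.

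In the Ecrg4-led sub-cluster itself, 54 members were set against 54 barcodes with 0 Isl1 UMIs, at median depths of 1259 UMIs in members and 1240 in the others. Of 956 genes, 29 were called higher (3.03%) and 25 lower (2.62%). Pdk4, a kinase that restrains pyruvate oxidation, had 296 CPM in members and 53.7 CPM in the matched barcodes, 5.503-fold (2.11 to 18.21). The Notch target Hes1 had 234 CPM in members and 75.2 CPM in the matched barcodes, 3.12-fold (1.30 to 8.60). Scrn1, Cdc14a, Srsf10 and Sf3b1 followed, between 2.66 and 3.32. Ecrg4, the sub-cluster's leading gene, had 1274 CPM in members and 3480 CPM in the matched barcodes, a ratio of 0.366 (0.295 to 0.451). The MHC class I gene H2-K1 had 132 CPM in members and 430 CPM in the matched barcodes, a ratio of 0.308 (0.151 to 0.589). S100a6, Slc26a4, Ier3 and Dnajc3 were the others of the 6 lowest, between 0.169 and 0.330.

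Among hair cell-like barcodes, 15 members were set against 133, at medians of 1760 UMIs in members and 1420 in matched barcodes, and 66 of 1318 genes were called higher (5.01%) and 161 lower (12.2%). Of these members 6.67% were called doublets, against 18.0% of the matched barcodes. Lmo4, encoding a LIM-only protein, had 671 CPM in members and 125 CPM in matched barcodes, 5.37-fold (2.72 to 10.3). Cib2, a partner of the mechanotransduction channel, had 631 CPM in members and 135 CPM in matched barcodes, 4.68-fold (2.36 to 9.003). Pcp4 had 2604 CPM in members and 570 CPM in matched barcodes. Cdkl2, Pdap1 and Atp2b1 had ratios between 2.79 and 2.82. The lipid-carrier genes Apoe and Apod, abundant in glia and stroma, were low: Apoe had 197 CPM in members and 1409 CPM in matched barcodes, and Apod 158 CPM in members and 1029 CPM in matched barcodes. Lpgat1, Nin, Atp5o and Morn2 were also low, between 0.0887 and 0.149. These genes were matched within the cluster only, not within its sub-clusters. Over both libraries, Cib2 stood at 1101 CPM in the Ocm-led sub-cluster and 174 CPM in the rest of this cluster. Pcp4 stood at 4336 CPM there and 672 CPM in the rest. The Dlk2-led and Ocm-led sub-clusters held 7 and 3 of the 15 members, and the largest sub-cluster 1. The part of this makeup in the ratios was not tested.

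In the noise only library 226 of 5102 genes were called higher in members (4.43%) and 615 lower (12.1%), and under the sub-cluster match 39 of 1095 higher (3.56%) and 53 lower (4.84%). Phyhipl had 284 CPM in members and 53.8 CPM in matched barcodes, 5.28-fold (3.32 to 8.34), and 3.05-fold under the sub-cluster match. Pde4d, a cyclic AMP phosphodiesterase, was 4.83-fold higher, and Crnkl1, Slitrk6 and Basp1 were 4.14-, 3.81- and 3.62-fold higher. Slc26a4, the anion transporter pendrin, had 8.12 CPM in members and 351 CPM in matched barcodes, a ratio of 0.0232, and 0.493 from 1 and 2 UMIs under the sub-cluster match. Vmo1 had 0 UMIs in members and 581 CPM in matched barcodes, and Crhbp 0 UMIs and 432 CPM. Under the sub-cluster match too few UMIs of either were left for a ratio. Car3, Gpx3, Egfl7, Ptprb, Lrp2, Epha7 and Ppp1r14b had ratios between 0.0543 and 0.0993. Among epithelium-like barcodes alone, 162 of 3849 genes were called higher (4.21%) and 484 lower (12.6%), and under the sub-cluster match 30 of 755 higher (3.97%) and 38 lower (5.03%). Tubb2b, Nhsl1, Ank, Prkar2b, Slitrk6 and Sall2 led, between 3.43 and 4.32, and Spp1, Coch, Atp2c1, Car3 and Hspb1 were low beside Slc26a4. With 26 noise only members in this cluster, each ratio rests on few barcodes.

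Of 5060 genes tested in both libraries, 27 were called higher in members of both, which is 24.8% of those called higher with AAV and 12.2% of those called higher in noise only. Over all these genes 4.37% were called higher in noise only and 2.15% with AAV. Called lower in both were 49 genes, 35.5% of those called lower with AAV and 8.09% of those called lower in noise only, against 12.0% called lower in noise only and 2.73% with AAV over all. Of these genes, 14 higher and 21 lower met the rule for named genes. Rassf9 had 86.2 CPM in members and 23.4 CPM in matched barcodes with AAV, 3.69-fold, and was 4.23-fold higher in noise only. With AAV and in noise only, Agr3 was 3.03-fold and 4.51-fold higher, the tubulin gene Tubb2b 2.86-fold and 4.46-fold, the transcription factor gene Sall2 2.49-fold and 3.21-fold, the kinesin gene Kif21a 2.20-fold and 2.21-fold, and the receptor gene Egfr 2.58-fold and 3.32-fold. Clasp1, Socs2, Ugdh, Aqp11, Dapk1, Acaca, Plcd4 and Asrgl1 were the others. Among the 21 lower genes were the endothelial genes Cldn5, at ratios of 0.273 with AAV and 0.204 in noise only, and in the same order Flt1, at 0.319 and 0.102, and Egfl7, at 0.176 and 0.0796, with Ptprb, Ly6a, Ly6c1, Cavin2 and Itm2a. Endothelial marker genes summed to 162 CPM in members and 403 CPM in matched barcodes with AAV, and in noise only to 203 CPM in members and 931 CPM in matched barcodes; their part in the other values was not tested. The pigment enzyme gene Dct, at 0.389 and 0.183, and Ceacam16, at 0.370 and 0.135, were lower too, as were Cp, Cxcl12, Car3, Glrb, Zmynd12, Hpse, Ppp1r1b, Tcap, Ltbp2, Cpne8 and Pou3f4. Tcap, Ltbp2, Ceacam16 and Zmynd12 are leading genes of the Tcap-led epithelial sub-cluster. It held 10 of the 99 epithelium-like members with AAV and 0 of the 27 in noise only. Under the sub-cluster match, with few UMIs, the noise only log2 ratios of Zmynd12 and Ppp1r1b turned to 1.40 and 0.66.

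Epithelium-like members were also set side by side across the libraries, with 97 in AAV-Isl1 plus noise and 26 in noise only, at median depths of 1274 UMIs with AAV and 3106 in noise only. Of 1371 genes, 148 were called higher with AAV (10.8%) and 81 lower (5.91%). Among the matched barcodes with 0 Isl1 UMIs, 167 of 6658 were higher (2.51%) and 100 lower (1.50%). The member comparison rests on fewer UMIs than the matched one. Hair cell genes stood at 2834 CPM in AAV-Isl1 plus noise members and 619 CPM in noise only members, 4.58-fold (3.43 to 6.21), with 8 of 8 genes higher, while the ratio was 0.68 in matched barcodes. With AAV the 5 members richest in these genes held 50.3% of the list's UMIs. Without the 5 richest members of each library the levels were 1614 CPM with AAV and 404 CPM in noise only. Immediate early and stress genes stood at 41948 CPM in AAV-Isl1 plus noise members and 25810 CPM in noise only members, 1.63-fold, with 23 of 23 higher, and the ratio was 0.83 in matched barcodes. The members compared lay in different sub-clusters, since the Ecrg4-led one held 56 of 99 epithelium-like members with AAV and 3 of 27 in noise only; the part of this makeup in these ratios was not tested. Interferon-stimulated genes had ratios of 1.20 in members and 1.61 in matched barcodes, and supporting cell genes 0.51 and 0.86.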

How the data were processed

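Single-cell RNA-seq was deposited as UMI counts per gene and barcode, 1 matrix per library, with 5 mice pooled in each. Per the submitters' processing notes, Cell Ranger 5.0, STAR, Seurat 3.2.2 and mm10 (GRCm38) were used; Cell Ranger 5.0.1 stands in the header of the matrices. The members and the gene lists were chosen with earlier results of these data known. Kept barcodes were scaled to 10000 UMIs, and clustered in scanpy 1.11.5 on 2000 variable genes per library, 50 components and 15 neighbours (Leiden, resolution 1); names needed at least 3 markers and leading genes that do not go against them. Scrublet's automatic threshold called 0 barcodes, so the highest-scoring barcodes up to an expected 6% were called, 1302 and 1196, and kept in. Sub-clusters, this threshold and those for Bpifa1 were chosen after the data were seen.

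Each member was matched to up to 10 barcodes of its cluster with 0 Isl1 UMIs within 0.5 log2 of its UMIs, fewer where the pool ran out; 3 and 1 members without a match were left out. Genes named are the 10 highest and lowest ratios (6 for 1 identity) with an interval excluding 1 and at most 30% of UMIs in 1 barcode, the main genes of lists, and genes called in both libraries that meet the same limits. A ratio against 0 uses a floor of 3 counts over the group and is never taken past 1. Intervals for ratios are exact conditional binomial, for shares Clopper-Pearson and for levels Poisson, computed with scipy 1.17.1. Ratios, their intervals and the calls by size were tested on simulated Poisson counts, which hold no variation between barcodes. Matching was not tested in this way. No replicate test exists with 1 library per group.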

Additional observations from a re-analysis of the deposited data

Results flagged for a closer look

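Several genes lay on opposite sides of 1 in the libraries when members were compared with matched barcodes. The difference between the libraries was not tested. Otof, encoding otoferlin, stood at 183 CPM in members and 56.2 CPM in matched barcodes with AAV, 3.26-fold, and at 16.2 CPM and 67.2 CPM in noise only, a ratio of 0.242 from 2 member UMIs. Cib2, a partner of the mechanotransduction channel, had ratios of 2.46 with AAV and 0.204 in noise only, and the glycerol phosphate dehydrogenase gene Gpd2 had 2.01 and 0.294. The noise only values of these 3 genes rest on 2 or 3 UMIs in members.

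The opposite pattern was seen for Pde4d, with ratios of 0.384 with AAV and 4.83 in noise only, and for Tmem221, with 0.336 and 3.21. With AAV these rest on 5 member UMIs for Pde4d (0.122 to 0.928) and 4 for Tmem221 (0.0895 to 0.892). In noise only they rest on 14 and 27 member UMIs. Scd1, a fatty acid desaturase, stood at 75.4 CPM in members and 171 CPM in matched barcodes with AAV, a ratio of 0.441, and at 658 CPM and 281 CPM in noise only, a ratio of 2.34.

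By list, immediate early and stress genes had summed ratios of 1.59 with AAV and 0.87 in noise only, and tectorial and otolithic matrix genes 1.1 and 0.878. Under the match within sub-clusters neither list lay on opposite sides of 1, with 1.26 and 1.05 for immediate early and stress genes and 0.929 and 0.955 for tectorial and otolithic matrix genes.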

How the results depend on the processing

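No paired analysis was possible because each group is 1 pooled library, and for the same reason no replicate could be left out. With at least 3 Isl1 UMIs the shares of members were 0.476% (AAV-Isl1 plus noise) and 0.0401% (noise only), a ratio of 11.9; with a minimum of 500 genes and a limit of 10% mitochondrial UMIs they were 1.13% and 0.263%; thinned, 0.641% and 0.0368%, a ratio of 17.4. With the 9 neuronal genes thinned as well, 17 of 98 and 10 of 14 members lay in the neuron-like cluster. With AAV, 58.5% of members were epithelium-like at a clustering resolution of 0.5 and 60.2% with at least 3 Isl1 UMIs. Genes called higher with AAV numbered 216 with 3 matched barcodes per member, 101 with at least 100 UMIs and 113 within sub-clusters, and genes called lower 130 and 72 under the last 2. In noise only, higher calls numbered 75, 21 and 39 under these settings and 341 with equal weight per barcode, and lower calls 214, 94 and 53. Neuronal genes outside the 9 had a ratio of 1.28 with AAV when under 2 of the 9 were allowed, and 7 lists rather than 4 lay above the median of all genes in noise only at equal weight. Median log2 ratios turned round for tectorial genes with AAV, to -0.036 at equal weight and -0.15 within sub-clusters, and in noise only, with list genes of at least 1 UMI, for interferon genes, to 0, and for neuronal genes outside the 9, to 0.025. Within sub-clusters of noise only the log2 ratio of Zmynd12 turned to 1.40 and that of Ppp1r1b to 0.66. Genes with 0 UMIs on one side and too few on the other were given no ratio. The cause of these changes was not tested beyond the smaller numbers of UMIs that fewer matched barcodes give. With 36 noise only members, ratios there have wide counting intervals.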

Other observations

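A few members carried RNA of secretory epithelium. Barcodes with over 5% of their UMIs from Bpifa1, a secreted protein of airway and middle ear epithelium, held 3 members of 23 (13.0%, 2.78 to 33.6%) in the AAV-Isl1 plus noise library and 3 of 14 (21.4%, 4.66 to 50.8%) in the noise only library. Isl1 summed to 168 CPM (76.7 to 319) in these AAV-Isl1 plus noise barcodes and to 241 CPM (128 to 412) in the noise only ones. Both erythroid-like members of the noise only library were among these barcodes. Barcodes with over 50% hemoglobin UMIs held 3 members of 313 (0.958%) in the AAV-Isl1 plus noise library and 0 of 105 in the noise only library, with Isl1 at 15.4 CPM and 6.97 CPM. The epithelium-like shares of 10.5% and 2.52% and Isl1 levels of 548 CPM and 106 CPM both lay above these, while the count of 0 in noise only allows a share of up to 3.45%.

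The MHC class I genes were low in epithelium-like members of the AAV-Isl1 plus noise library relative to matched barcodes. H2-K1 had a ratio of 0.431 there, and 0.42 under the sub-cluster match, and H2-D1 had 0.460 and 0.51. In noise only epithelium-like members Isg15 was 8.53-fold higher than in matched barcodes, with 55.1% of its UMIs in 1 barcode.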
